A study of Bos taurus with 6 samples.

Results

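The genes described here are lineage and nuclear receptor transcription factors, taken as every gene whose single symbol in the array annotation belongs to a fixed set of transcription factor names. The symbols were those of the SOX, FOX, KLF, HOX, CEBP, NR, RUNX, GATA, TWIST, PITX, MEF2, STAT, TCF, TEAD and ETS series, together with ERG and the retinoic acid and retinoid X receptors. This gave 80 of the 9155 genes measured, through 119 of 24016 probe sets, and where a gene had several probe sets its brightest one, by the mean of log2 signals with values under 15 set to 15, stood for it. Of 46 factors picked to be named whatever their values, 26 had a named probe set and 20, among them SOX9, SOX5, SOX6, RUNX1, RUNX2 and RUNX3, were not analysed here. TCF20 and TCF25 enter by their symbols only and belong to neither of the transcription factor groups that share the TCF name.

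Transcription factors bind DNA at gene control regions and set which genes a cell transcribes, and several of these families are known for fixing the identity of a lineage. Nuclear receptors are factors switched by small lipid-soluble ligands, and many of them work only as a pair with a retinoid X receptor. In marrow stromal cells the choice between fat, bone and cartilage is known to rest on a few such factors, with PPARG and the CEBP proteins on the fat side, RUNX2 on the bone side and SOX9 with SOX5 and SOX6 on the cartilage side.

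The cells were bovine mesenchymal stem cells from bone marrow, embedded in agarose hydrogel and cultured in a defined medium, and total RNA of each condition went on 1 Affymetrix array. There were 3 conditions without transforming growth factor beta 3 (TGF-beta3), harvested on days 3, 21 and 42, and 3 with it, harvested on days 21 and 42. The last of these had 21 days of free culture with TGF-beta3 and then 21 days of dynamic compression, also with TGF-beta3, up to day 42. TGF-beta3 is the growth factor used to drive such cells towards cartilage, and the loaded construct was meant to show what compression adds. Each condition had a single array, so there were no replicates, precision is limited by how few arrays there are, and the donors, or any pooling of them, are not given in the sources used here.

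Levels are the authors' signal intensities, and a floor of 15.1, the 40th percentile of all values, was set, below which values were treated as background. The median signal ran from 22.3 to 34.9 over the arrays. Hybridisation controls, which are spiked in at a set amount, had a median signal of 2618 to 3727 on 4 arrays, and 7304 and 5823 on the day 42 arrays with TGF-beta3, unloaded and loaded. On these last arrays 64 and 61 of the 80 factors lay above the floor, against 42 to 50 on the others. All 80 were accounted for as follows: 34 lay above the floor on all 6 arrays (42.5%, against 60.1% of all genes), 37 on some of them and 9 on none. The labelled cell type was checked against its markers. Of 10 mesenchymal stem cell markers 9 were above the floor on at least 1 array, but so were most genes of any kind. Only 12.4% of all genes were above it on no array, so this count does not tell stem cells from other cells. The matrix genes COL2A1 and ACAN of cartilage were at 2739 and 920.3 without and 10475 and 3896 with TGF-beta3 on day 21. Markers of fat cells were bright without TGF-beta3, with a summed signal over 8 genes of 5076 at day 3, 15593 at day 21 and 18280 at day 42, against 476, 934 and 760 on the arrays with it.

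Over days 21 and 42, 4 of the factors rose with TGF-beta3 and 6 fell. ERG and ETS2, both of the ETS family, rose, as did the forkhead factor FOXA3 and TCF25. The nuclear receptors NR1H3, NR1I3 and RXRA fell, as did KLF15, STAT4 and the E protein TCF12. These calls come from limma, fitted over all probe sets on 2 arrays with and 2 without TGF-beta3 with a term for day, at a Benjamini-Hochberg adjusted p under 0.05. Of the 80 factors 58 were above the floor on at least 2 of those 4 arrays and entered the fit. The 10 called are 17.2% of them, and 14.8% of all 6835 genes in the fit were called, so the share is near the background. Rises were 7.11% of all genes and falls 7.7%. A further 13 of the 58 had an unadjusted p under 0.05, which makes 23 in all, and the median log2 difference was 0.31, against 0.13 over all genes.

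Most of the calls depended on the day term. With the term dropped and all 4 arrays kept 2 were called (STAT4 and TCF12). Leaving out an array also meant dropping the day term, so these fits change both choices. Without the untreated day 21 array ERG alone was called, and without the untreated day 42 array none was, with 5 factors at an unadjusted p under 0.05 in each of these limma fits. Without the treated day 21 or day 42 array 15 and 13 were called. RXRA and NR1H3 lost their call without the treated day 21 array, and ETS2 and TCF25 without the treated day 42 array. The split of 4 rising and 6 falling became 7 and 6 under quantile normalization, 2 and 5 under median centring and 1 and 8 when arrays were scaled to the hybridisation controls. Without the variance trend 5 were called. STAT4 and FOXA3 were above the floor only in the group where they are high and so entered the fit through that group alone, and neither was tested where an array of that group was left out.

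**Figure D1:**
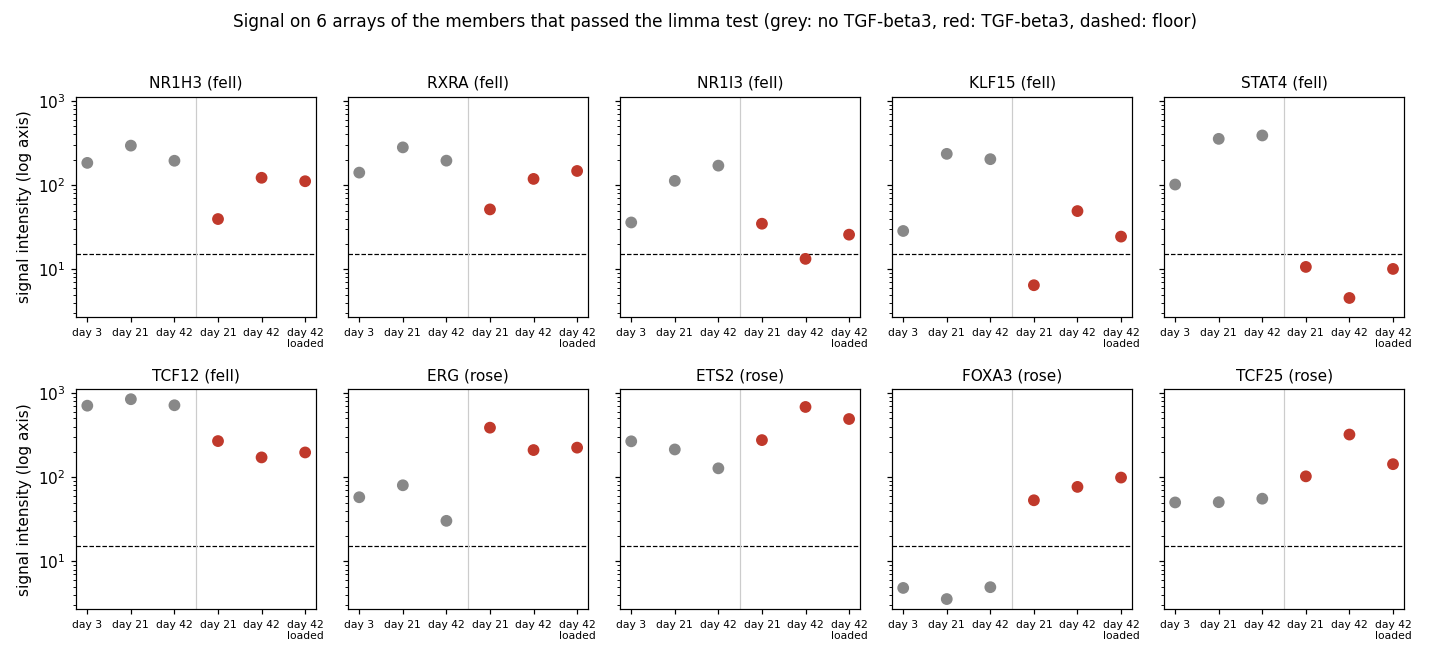
Signal intensity on a log axis of the 10 factors that passed the limma test, 1 panel per gene, with 3 arrays without TGF-beta3 in grey, 3 arrays with it in red and the floor of 15.1 as a dashed line; each point is 1 array, so there are no error bars. In the panel of STAT4 the grey points lie between 102 and 390 and the red points all lie under the floor, and in the panel of FOXA3 the grey points all lie under the floor.

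A group of the retinoid X receptors RXRA, RXRB and RXRG with their partners NR1H2, NR1H3, NR1I3 and RARA included 3 of the 6 falls. The group was set by hand and need not hold every partner. On day 21 alone 5 of these 7 genes were at least 2-fold lower and none at least 2-fold higher, under the authors' scaling and under each of the 3 other scalings. Over all genes 14.0% were lower by that much on day 21 and 14.3% higher. On day 42 the split was 1 lower and 2 higher, turning to 4 lower and 2 higher under median centring and 4 lower and 1 higher when scaled to the hybridisation controls. Over all genes 15.7% were lower and 25.5% higher on day 42 as deposited. All genes turned as well, to 2108 lower and 1114 higher under median centring and 3723 lower and 447 higher under the control scaling. NR1H3, also known as the liver X receptor alpha, which senses oxidised cholesterol, had signals on days 3, 21 and 42 of 184, 295 and 195 without TGF-beta3. With it they were 39.6 on day 21, 122 on day 42 and 111 under loading. The treated arrays all lay under the untreated ones, with the lowest on day 21. The limma mean log2 difference was -1.78 ± 0.57 (SE, adjusted p = 0.027), made of a 7.45-fold lower signal on day 21 and a 1.59-fold lower one on day 42. A dimmer NR1H3 probe set, below the floor on day 21 with and without TGF-beta3, had log2 differences of 0.66 on day 42 and, in limma, 0.33 with adjusted p = 0.77. Under median centring the NR1H3 mean was -2.03 and did not pass.

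RXRA, the retinoid X receptor that most of these receptors use as partner, followed the same order of arrays up to day 42. Its signals on days 3, 21 and 42 were 141, 281 and 195 without TGF-beta3, and 51.5, 119 and, loaded, 147 with it. It was 5.46-fold lower on day 21 and 1.65-fold lower on day 42 (limma mean log2 -1.58 ± 0.55, adjusted p = 0.0458). The loaded array lay between the untreated day 3 and day 42 arrays, so the ranges overlapped. The call was lost under all 3 other scalings, which left the mean between -1.48 and -2.39. NR1I3, the constitutive androstane receptor known from drug metabolism in liver, was at 36.0, 113 and 171 on days 3, 21 and 42 without TGF-beta3. With it NR1I3 was at 34.8 on day 21, under the floor at 13.3 on day 42, and at 25.8 when loaded. All treated arrays were lower than all untreated ones, though day 3 without TGF-beta3 and day 21 with it almost met. It was 3.23-fold lower on day 21 and at least 11.3-fold lower on day 42, and the limma mean log2 difference was -2.59 ± 0.73 (adjusted p = 0.00988).

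The other receptors of this group did not pass. RXRG, a retinoid X receptor known from muscle and brain, was at least 3.05-fold lower on day 21 and 1.77-fold lower on day 42 (adjusted p = 0.272 by limma). RXRB lay under the floor on all 3 untreated arrays and at 25.2, 25.3 and 62.7 with TGF-beta3. NR1H2, the other liver X receptor, was within 2-fold on day 21 and 3.20-fold higher on day 42, with a limma log2 difference of 0.97 and adjusted p of 0.365. RARA, a retinoic acid receptor, went opposite ways on the 2 days and is described with the comparison of the days.

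Partners and targets of these receptors were taken from lists of textbook genes. Of 5 nuclear receptors outside the symbol rule that were tested, PPARG, the receptor that drives fat cell formation, fell and the other 4 did not pass. Its signals on days 3, 21 and 42 were 193, 676 and 771 without TGF-beta3 and 17.9, 16.5 and, loaded, 17.4 with it. This was the largest gap of any receptor named here, at a limma mean log2 of -5.39 ± 0.58 (adjusted p = 3.79e-10). Among 9 coregulators, 2 fell, PPARGC1A with a mean log2 of -3.09 and SIRT1 with -1.49, at adjusted p of 1.04e-04 and 0.0273 by limma. Under median centring, spike scaling or no variance trend 1 coregulator fell, and none did without the day term. PPARGC1A is a coactivator of energy metabolism and SIRT1 a deacetylase that acts on several nuclear receptors. Of 6 liver X receptor targets tested, SREBF1, the factor that turns on fatty acid synthesis, and the lipid transfer gene PLTP fell, with mean log2 differences of -1.65 and -2.90 (adjusted p = 0.00403 and 0.00346 by limma). No liver X receptor target passed without the day term, and 1 did without the variance trend.

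Genes of retinoic acid handling went both ways. Of 8 tested, CRABP2, RARRES2 and RBP4 rose and ALDH1A1 and RDH10 fell. The split was 1 rising and 2 falling under spike scaling, where the median log2 difference went from 0.94 to -0.04, and 2 and 1 without the day term. CRABP2, which carries retinoic acid to its receptors, was under the floor on all 3 untreated arrays and at 764, 779.6 and 622 with TGF-beta3. CRABP2 thus entered the limma fit only through the treated arrays, where it is high. RDH10 and ALDH1A1 catalyse successive steps from retinol to retinoic acid. ALDH1A1 and RDH10 were at 1003 and 181 on day 21 without TGF-beta3 and at 28.3 and 39.6 with it (limma adjusted p = 2.54e-12 and 0.0243). Over all 15 partner and target lists 44 of the 108 genes tested passed (21 rose, 23 fell), against 14.8% of all genes (7.11% and 7.7%), and 25 without the day term. The genes that passed include some, such as CRABP2, that entered the fit through 1 group alone. The lists were drawn up with earlier results of these data known.

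**Figure D2:**
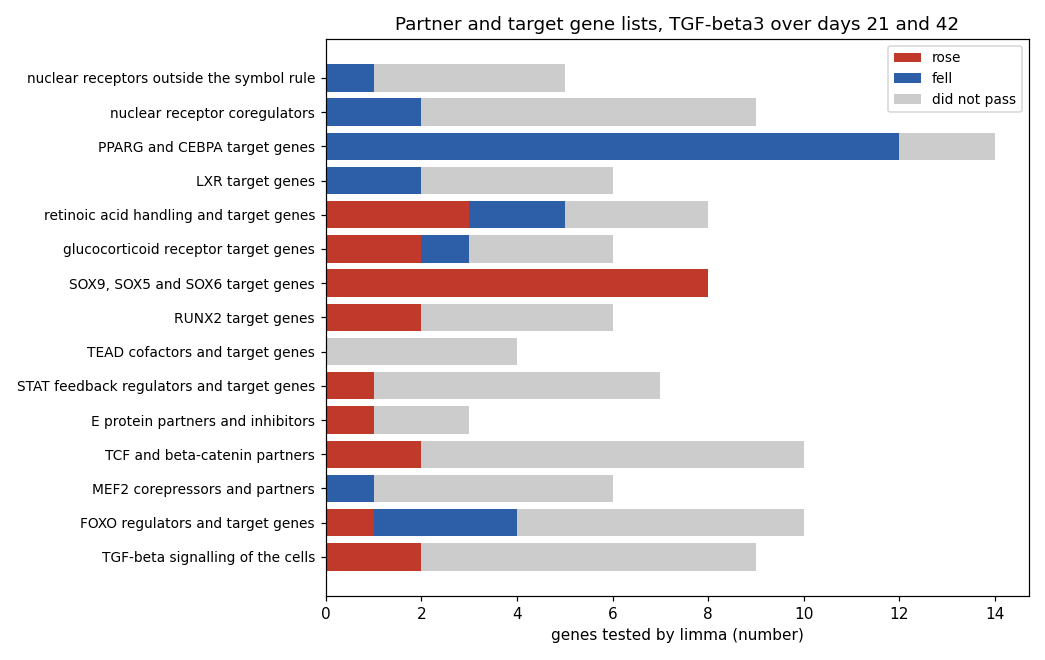
Number of genes (horizontal axis) of each of 15 lists of partners and targets of the factors that rose (red), fell (blue) or did not pass (grey) in the limma test of TGF-beta3 over days 21 and 42; each bar is as long as the number of genes tested. Of 14 PPARG and CEBPA targets 12 fell, and of 8 SOX9, SOX5 and SOX6 targets 8 rose. In both lists not all tested genes were above the floor both with and without TGF-beta3.

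Among the Kruppel-like factors, zinc-finger proteins with roles in fat, gut and vessels, KLF15 fell and the other 5 did not pass. KLF15, which is known to act beside PPARG and CEBP proteins in fat cells, was at 28.6 on day 3 and at 235 and 204 on days 21 and 42 without TGF-beta3. With it KLF15 was under the floor on day 21, at 49.2 on day 42 and at 24.5 when loaded. The treated arrays overlapped the untreated day 3 array but lay far under the untreated arrays of their own days. It was at least 15.5-fold lower on day 21 and 4.14-fold lower on day 42, and the limma mean was -3.0 ± 0.68 (adjusted p = 0.00123). Since 1 array was under the floor, this mean understates the gap.

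KLF13 and KLF11, both repressors of this family, stood on opposite sides. KLF13 was 2.88-fold and 2.67-fold lower on days 21 and 42 (adjusted p = 0.181 by limma, called only under spike scaling). KLF11, known as a TGF-beta-inducible factor, was 2.86-fold and 2.38-fold higher (adjusted p = 0.199 by limma), but on day 42 its log2 difference of 1.25 became -0.070 when arrays were scaled to the hybridisation controls. Dimmer KLF11 probe sets were within 2-fold on day 42, at 0.91 and 0.50. KLF10, like KLF11 a factor known as TGF-beta-inducible, was at 484 without and 561 with TGF-beta3 on day 21 and at 439.8 and 589 on day 42. It was within 2-fold on both days by this probe set, and just past it on day 42 by another (320.3 and 667). KLF4, a factor of stem and epithelial cells, ran from 1137 to 2116 over the 6 arrays and was also within 2-fold on both days, and KLF5 was 2.84-fold lower on day 21 and within 2-fold on day 42.

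The CEBP factors, which act upstream of and beside PPARG in fat cells, did not pass. CEBPA, the one most tied to mature fat cells, was under the floor on 5 arrays and at 30.8 on the loaded one. CEBPB was at 198 and 211 without and 274 and 680.4 with TGF-beta3 on days 21 and 42, a 3.22-fold higher signal on day 42 (limma mean log2 1.08 ± 0.41, adjusted p = 0.0704). CEBPD was 2.26-fold lower on day 21 and almost level on day 42, and CEBPG was 2.69-fold and 1.83-fold higher. Beside these, 12 of 14 tested PPARG and CEBPA targets fell and none rose, with CD36, DGAT2, PDK4 and AQP7 at mean log2 differences of -7.74, -7.05, -6.57 and -5.99 by limma. All 4 handle fat or its burning in fat cells, and the adjusted p of the 12 falls was at most 7.92e-04. Without the day term 10 of the 14 fell. The 7 fat cell markers tested fell as well, 6 without the day term. Above the floor on an unloaded treated array were 10 of 15 targets and 4 of 8 markers with a probe set. The tested ones that were not entered the fit only through the untreated arrays, where they are high. In such bulk samples fewer cells of a type and less RNA per cell cannot be told apart. Whether fat cell content had a part in the values of KLF15, NR1H3 and RXRA was not tested.

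The remaining nuclear receptors gave no call among 6 tested of 11. NR3C1, the glucocorticoid receptor, was at 266 and 267 without and at 119 and 132 with TGF-beta3, and at 167 when loaded. It was just past 2-fold lower on both days, and limma gave a mean log2 of -1.09 ± 0.47 (adjusted p = 0.123). A dimmer NR3C1 probe set gave -1.60 and -0.78 on the 2 days. Of 6 glucocorticoid receptor targets tested, MT2A and SGK1 rose and DUSP1 fell, with limma mean log2 differences of 2.48, 1.87 and -2.56. Neither rise passed under spike scaling, where 2 targets fell, or without the day term. NR2F2, a receptor of mesenchymal and vein cells, ran from 151 to 189 over the 6 arrays on its brightest probe set. A dimmer NR2F2 probe set ran from 18.0 to 141, with log2 differences of -1.06 on day 21 and 1.89 on day 42. Its relative NR2F1 was above the floor on 3 arrays, none over 24.7. The immediate early receptor NR4A2 was within 2-fold on both days by its brightest probe set, and NR4A1 was at least 2.24-fold lower on day 21 and at 13.5 (under the floor) and 23.6 on day 42. NR1D1, a repressor of the circadian clock, was at 68.4 and 61.4 on the treated day 42 arrays and no higher than 15.8 on the other 4. The treated day 42 arrays are those with the bright hybridisation controls.

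STAT4, which carries interleukin-12 signals in T and natural killer cells, had the largest difference of the set. Its signals on days 3, 21 and 42 without TGF-beta3 were 102, 355 and 389, and it was under the floor on all 3 treated arrays. It was at least 23.4-fold lower on day 21 and at least 25.7-fold lower on day 42, with a limma mean log2 of -4.62 ± 0.68 (adjusted p = 7.81e-07) that understates the gap, since the treated arrays were set to the floor. In the 14 alternative limma fits that tested it the adjusted p ran from 7.4e-14 to 0.0125. The fits without an untreated array of day 21 or day 42 did not test it, since it passes the filter only through those arrays. A dimmer STAT4 probe set was above the floor only on day 21 without TGF-beta3, at 18.4. Some markers of blood cells fell as well. Of 9 tested, AIF1, CD53 and CD68 fell, and the summed signal of 13 markers was 317, 523 and 660 on days 3, 21 and 42 without TGF-beta3 and 97.6, 249 and 194 with it. Of these 13, 6 were above the floor on an unloaded treated array, so some tested markers entered the fit only through the untreated arrays. The common leukocyte gene PTPRC was at 15.98, 63.6 and 48.2 without TGF-beta3 and above the floor on 1 array with it, at 20.1. The T cell gene CD3E was under the floor on all 6 arrays. The part of the blood cell markers in the STAT4 result was not tested.

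The other STAT factors did not pass. STAT3, the interleukin-6 pathway factor, ranged from 469 to 702 over the 6 arrays. STAT6, which carries interleukin-4 signals, was at 271 without and 51.7 with TGF-beta3 on day 21, a 5.23-fold difference, and at 105 and 116 on day 42. STAT2, of the interferon pathway, was within 2-fold on both days, and STAT5B was at least 1.90-fold and 2.18-fold higher. Of 7 STAT feedback and target genes tested, PIM1, a kinase induced by STAT factors, rose (limma mean log2 1.98, adjusted p = 5.06e-04), but not under median centring, under spike scaling or without the day term. Under spike scaling 2 genes of the list fell. ISG15 and MX1, interferon-response genes of that list, were at 142 and 52.1 on day 3, 317 and 122 on day 42 without TGF-beta3, and under the floor on the other 4 arrays.

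TCF12 is an E protein, a basic helix-loop-helix factor that pairs with tissue-specific partners. Its signals were 708, 845 and 716 without TGF-beta3 on days 3, 21 and 42, and 269, 172 and, loaded, 197 with it. No treated array reached an untreated one. TCF12 was 3.14-fold lower on day 21 and 4.16-fold lower on day 42 (limma mean log2 -1.86 ± 0.37, adjusted p = 2.20e-04), lower under all 4 scalings. The other E proteins, TCF3 and TCF4, did not pass and differed by less than 2-fold on both days by their brightest probe sets. Of their partners and inhibitors, ID3 rose (2.27, adjusted p = 0.0187 by limma; not without the day term), while ID1 and ID2 had mean log2 differences of 1.82 and -1.41 and did not pass. ID proteins bind E proteins and keep them off DNA.

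Of the factors that share a TCF name without being E proteins, TCF25 rose. It was at 50.1, 50.5 and 55.6 without TGF-beta3 and at 102, 321 and, loaded, 143 with it. The adjusted p of 0.0494 by limma (mean log2 1.78 ± 0.63) was the highest of the 10 calls, the call was lost under median centring and spike scaling, and the other TCF25 probe set had 0.35 (adjusted p = 0.78). TCF7, a Wnt pathway factor, was at 52.2 and 72.9 on day 21 and at 12.3 (under the floor) and 32.3 on day 42 without and with TGF-beta3. It did not pass, and a dimmer TCF7 probe set was at 30.5 without and under the floor with TGF-beta3 on day 42. Of 10 beta-catenin partners and targets tested, LEF1, the closest relative of TCF7, and the cyclin CCND1 rose. LEF1 was at 47.9, 28.6 and 15.5 without and 250.3, 291 and, loaded, 363 with TGF-beta3 (limma mean log2 3.68, adjusted p = 6.43e-05). In this list 1 gene rose under median centring, under spike scaling and without the day term.

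All 3 ETS factors were more than 2-fold higher on day 42 under all 4 scalings, where 25.5% of all genes were under the authors' scaling. ERG, known from blood vessel lining and from the permanent cartilage of joints, was at 57.8, 80.2 and 30.3 without TGF-beta3 on days 3, 21 and 42. With it ERG was at 388, 210.2 and, loaded, 225, so that each treated array lay above each untreated one. It was 4.83-fold higher on day 21 and 6.93-fold higher on day 42 (limma mean log2 2.53 ± 0.57, adjusted p = 0.00106), and the other ERG probe set was called too, at 2.79. Scaled to the hybridisation controls the mean was 1.73, not past the test. Of 8 endothelial markers 5 were under the floor on all arrays, PECAM1 reached 20.8 on 1 array, and the summed signal ran from 40.3 to 102.9.

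ETS2, which acts downstream of the RAS pathway, was at 214 and 128 without and 276 and 683 with TGF-beta3, and at 491 when loaded. It was 1.29-fold higher on day 21 and 5.36-fold on day 42 (limma mean log2 1.40 ± 0.44, adjusted p = 0.0231), and its other probe set gave a mean of 1.42, but neither median centring nor spike scaling (1.15 and 0.59) kept the call. ETS1 was 1.26-fold higher on day 21 and 5.26-fold on day 42 and did not pass (adjusted p = 0.173 by limma), although a dimmer ETS1 probe set did (1.93, adjusted p = 0.047). That probe set was under the floor on both untreated arrays of the fit, so it entered through the treated arrays alone. On day 21 other probe sets of ETS1 and ETS2 were past 2-fold, at log2 2.35 and 1.33. On day 42 the median log2 difference of the 3 genes was 2.42 under the authors' scaling and 1.10 when scaled to the hybridisation controls.

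In the forkhead family 1 of 6 tested genes rose. FOXA3, a factor of liver and gut endoderm, was under the floor on the 3 untreated arrays and at 53.2, 76.7 and, loaded, 99.0 with TGF-beta3. Day 21 gave a difference of at least 3.51-fold and day 42 of at least 5.07-fold, higher under all 4 scalings, with a limma mean log2 of 2.08 ± 0.65 (adjusted p = 0.024) on values set to the floor in the untreated arrays. FOXO4, of the group that acts under insulin signalling, was under the floor on days 21 and 42 without TGF-beta3 and at 21.6 and 83.8 with it (adjusted p = 0.0991 by limma). Of 10 FOXO regulators and targets, SGK1 rose and PDK4, SESN1 and CAT fell, at limma mean log2 differences of 1.87, -6.57, -2.37 and -2.04. The SGK1 rise was lost under spike scaling, without the variance trend and without the day term. FOXN3 and FOXP1 stayed well above the floor on all arrays and did not pass.

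The SOX genes with a probe set were SOX2, SOX4, SOX10, SOX15 and SOX18, and none passed. SOX4, a factor of progenitor cells, was at 84.7, 48.5 and 30.5 on days 3, 21 and 42 without TGF-beta3, at 31.6 on day 21 with it, and under the floor on both treated day 42 arrays. SOX10, known from neural crest, was level on day 21 (22.2 and 23.9). On day 42 it was under the floor without and at 127 with TGF-beta3, and at 228 when loaded (adjusted p = 0.124 by limma). SOX2, SOX15 and SOX18 were above the floor on 1, 1 and 0 arrays. The cartilage genes that SOX9, SOX5 and SOX6 are known to switch on rose, 8 of 8 tested, with mean log2 differences by limma of 6.82 for CHAD, 4.52 for COMP, 3.62 for COL11A2 and 3.30 for COL9A1. Of these 8, 5 were called when arrays were scaled to the hybridisation controls and 6 without the day term. Of 10 targets with a probe set 7 were above the floor on an untreated array of day 21 or 42. Tested targets that were not entered the fit only through the treated arrays. The list of cartilage cell markers, which overlaps this list of targets, gave the same counts, 8 of 8 and 5 of 8. Of 6 RUNX2 targets tested, VEGFA and COL1A1 rose, by 4.0 and 2.28 on the log2 scale, and IBSP, SPP1, MMP13 and COL10A1 did not pass. Under spike scaling, and without the day term, 1 target rose. Under quantile normalization 2 rose and 1 fell.

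PITX1, a factor of the hind limb, was near or under the floor on all 3 untreated arrays, the highest at 16.6, and at 55.2, 35.4 and, loaded, 56.9 with TGF-beta3. Its limma mean log2 was 1.48 ± 0.61 (adjusted p = 0.101), and on day 42 its difference of 1.22 became -0.024 when arrays were scaled to the hybridisation controls. MEF2C, which acts in muscle and in cartilage growth plates, had log2 differences of -0.77 and 1.32 on the 2 days, the latter -0.0018 under that scaling. MEF2A did not pass on its brightest probe set (0.78 ± 0.34, adjusted p = 0.133 by limma), whereas the dimmest of its 3 did, at 1.45 with adjusted p = 0.0095. Of 6 MEF2 partners tested, the kinase MAPK14 fell (-1.53, adjusted p = 0.0168 by limma), but it did not pass under median centring or spike scaling, without the day term or without the variance trend.

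The TEAD factors, through which YAP and TAZ act on stiffness and growth, did not pass. TEAD4 was under the floor on all 3 untreated arrays and at 33.9, 68.8 and, loaded, 62.6 with TGF-beta3. It thus entered the limma fit through the treated arrays alone. Its adjusted p was 0.0625 by limma, with a call under quantile normalization. TEAD2 was level on day 21 and 3.74-fold higher on day 42, at 44.7 without and 167 with TGF-beta3. The TEAD targets CCN1 and CCN2 had mean log2 differences of 0.60 and 1.04, and none of 4 cofactors and targets tested passed. Of 9 genes of the TGF-beta pathway tested, TGFBI and TGFBR2 rose, at limma mean log2 differences of 4.15 and 1.43. In this list 1 gene rose and 1 fell under median centring and under spike scaling. Quantile normalization gave 3 rising and 1 falling, and without the day term 1 rose.

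The HOX genes, which mark position along the body and limb, gave no call among 8 tested of 11. HOXA4 and HOXA10 lie in the same cluster on chromosome 4 of the RefSeq assembly ARS-UCD2.0, with HOXA9 and HOXA5 between them in the set, and stood on opposite sides. HOXA4 was at 18.4 and 24.5 without and 55.0 and 88.1 with TGF-beta3, 2.99-fold and 3.59-fold higher (adjusted p = 0.0964 by limma). HOXA10 was at 49.4 and 59.9 without and, with it, under the floor on day 21 and at 25.2 on day 42 (adjusted p = 0.139 by limma). HOXA10 was lower on both days under all 4 scalings and was called under the 3 that were not the authors'. HOXA4 was higher on both days under all 4, by log2 0.52 on day 42 when scaled to the hybridisation controls. HOXA5 had log2 differences of -1.07 on day 21 and -0.50 on day 42, and HOXA9 lay within 2-fold on both days. HOXC6 was at 26.3 and under the floor without, and under the floor and at 36.8 with TGF-beta3 on days 21 and 42. All 4 GATA genes, GATA6 included, lay under the floor on every array.

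By size on each day alone, the set leaned down on day 21 and, under the authors' scaling, up on day 42. All genes leaned up on day 42 as well. Scaled to the hybridisation controls, both the set and all genes leaned down on both days. On day 21, 28 of 59 factors were at least 2-fold apart (47.5%, against 28.3% of all genes), 9 higher (14.3% of all genes were) and 19 lower (14.0%). On day 42, 33 of 67 were (49.3%, against 41.1% of all genes), 25 higher (25.5% of all genes) and 8 lower (15.7%). A factor above the floor on 1 side only had to differ, so these shares describe the factors compared and not all 80. The median log2 difference was -0.01 on day 21 and 0.61 on day 42, against 0.09 and 0.22 over all genes. The day 42 split rested on the scaling. It was 21 higher and 8 lower under quantile normalization, 18 and 14 under median centring, and 11 and 23 when scaled to the hybridisation controls, which themselves differed by log2 1.32 between those arrays and by 0.30 on day 21. All genes on day 42 were 1610 higher and 1310 lower under quantile normalization, 1114 and 2108 under median centring, and 447 and 3723 under the control scaling. The last scaling moved the median of all genes on day 42 from 0.22 to -1.06, and median centring moved it to -0.32. On day 21 the control scaling moved it from 0.09 to -0.19.

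The 2 days share no array. Of 58 factors compared on both, 7 were higher by 2-fold or more each time (12.1%, against 8.14% of all genes). These were ERG, FOXA3, HOXA4, KLF11, PITX1, TCF25 and TEAD4, and for KLF11 and PITX1 the day 42 difference was just under 0 when scaled to the hybridisation controls. Another 7 were lower on both days (12.1%, against 8.17%), namely HOXA10, KLF13, KLF15, NR1I3, NR3C1, STAT4 and TCF12. Some factors with large differences on day 21 were closer on day 42. STAT6, RXRA and NR1H3 were 5.23-fold, 5.46-fold and 7.45-fold lower on day 21 and 1.10-fold higher, 1.65-fold lower and 1.59-fold lower on day 42. TCF20 was 3.25-fold higher on day 21 and 1.32-fold lower on day 42. By their brightest probe sets SOX10, HOXB4, ETS1, ETS2 and TEAD2 were within 2-fold on day 21 and between 3.74-fold and 8.37-fold higher on day 42, the first 2 of them as bounds; scaled to the hybridisation controls, TEAD2 was within 2-fold there (log2 0.58). For ETS1 and ETS2 another probe set was past 2-fold on both days (ETS1 2.35 and 1.14, ETS2 1.33 and 1.51). Whether these differences between the days exceed the spread of cultures was not tested, since each day had 1 array per condition.

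HOXC13 and RARA were at least 2-fold apart in opposite ways on the 2 days (3.45% of the 58, against 1.05% of all genes). RARA was at 33.8 without and under the floor with TGF-beta3 on day 21. On day 42 it was under the floor without and at 200.4 with TGF-beta3, and at 159.7 when loaded. Its log2 differences were -1.16 and 3.73, both bounds. The other RARA probe set, at 36.2 and 28.3 on day 21 and 13.7 and 73.4 on day 42, had -0.35 and 2.28, so that the day 21 difference was within 2-fold there. HOXC13 had -1.09 and 1.70, on signals of 37.3 and 17.5 on day 21 and 14.4 and 49.1 on day 42.

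**Figure D3:**
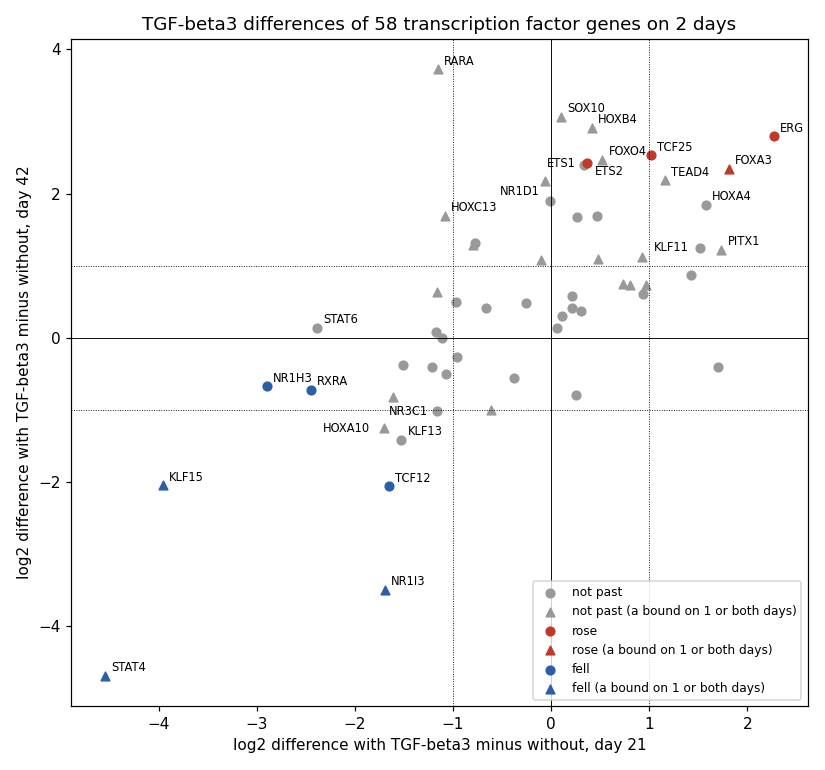
The log2 difference with minus without TGF-beta3 on day 21 (horizontal axis) and on day 42 (vertical axis) for the 58 factors compared on both days, each point being 1 gene from 1 array per condition, coloured by the limma call, with triangles for bounds and dotted lines at 2-fold. STAT4 lies at the lower left at -4.55 and -4.68, ERG at the upper right at 2.27 and 2.79, and RARA at the upper left.

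Under dynamic compression from day 21 to day 42 the share of factors at least 2-fold apart was near that of all genes. Of 67 compared on the loaded and the unloaded day 42 array, 13 were at least 2-fold apart (19.4%, against 15.8% of all genes), 7 higher (8.41% of all genes) and 6 lower (7.41%). The split was 9 higher and 1 lower when arrays were scaled to the hybridisation controls, which were lower by log2 0.33 on the loaded array, and which moved the median of all genes from -0.04 to 0.27. Under that scaling all genes were 972 higher and 179 lower. With 1 array on each side there is no test. FOXP4, a forkhead repressor, was at 126 unloaded and 619 loaded, a 4.90-fold difference, and between 97.3 and 169 on the other 4 arrays. This was the widest loading gap of the set, but a dimmer FOXP4 probe set was at 97.1 unloaded and 90.3 loaded (log2 difference -0.10). KLF13 went from 26.4 to 79.9, 3.02-fold higher, to a level near those of the untreated day 21 and day 42 arrays. FOXJ2, RXRB and HOXA10 were 2.79-fold, 2.48-fold and 2.06-fold higher, HOXA10 just within 2-fold under median centring.

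Lower on the loaded array were STAT2 (2.57-fold, from 101 to 39.5), TCF25 (2.25-fold), RXRG (2.18-fold) and KLF15 (2.01-fold), the last 3 within 2-fold when scaled to the hybridisation controls. The other TCF25 probe set was at 136 and 133. KLF15, which fell with TGF-beta3, was thus lower again under loading, whereas KLF13, also lower with TGF-beta3 on both days, was higher. The loading and the day 42 TGF-beta3 comparisons share the unloaded day 42 array with TGF-beta3. A low reading there, as for KLF13 (26.4) and HOXA10 (25.2), or a high one, as for TCF25 (321), enters both. These differences are therefore not independent. Among those with 1 side under the floor, SOX15 was at least 2.47-fold lower, HOXD10 at least 2.11-fold lower, FOXL2 at least 2.29-fold higher and CEBPA at least 2.03-fold higher. Of the 10 factors that passed the TGF-beta3 test, ERG, ETS2, FOXA3, NR1H3, RXRA and TCF12 were within 1.4-fold between the loaded and the unloaded array by their brightest probe sets (another ERG probe set was at 192 unloaded and 95.9 loaded), NR1I3 was at least 1.71-fold higher, and STAT4 was under the floor on both. With the size rule at 3-fold, FOXP4 and KLF13 remained.

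**Figure D4:**
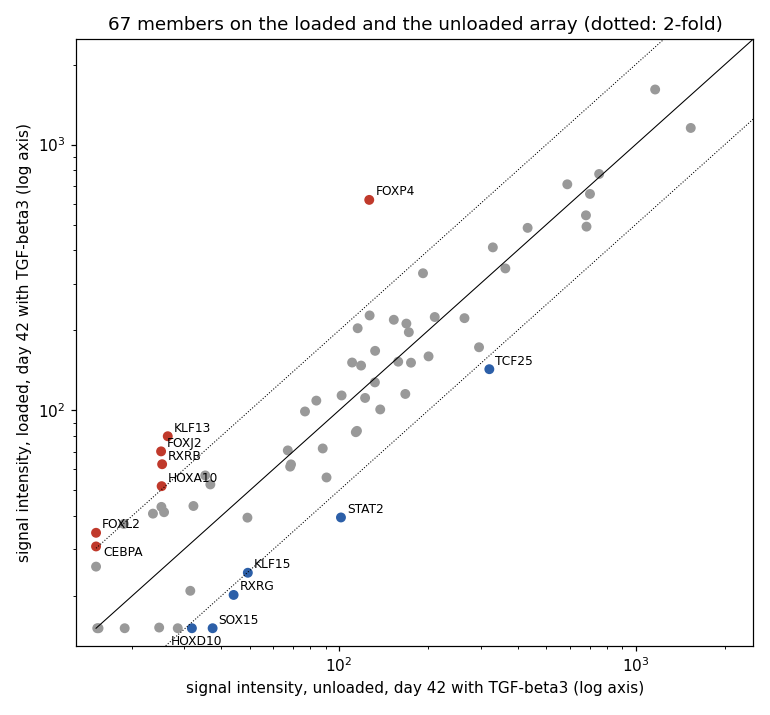
Signal intensity of the 67 factors on the unloaded (horizontal, log axis) and the loaded (vertical, log axis) day 42 array with TGF-beta3, 1 array each, with values under the floor set to 15.1, the line of equality and dotted lines at 2-fold. FOXP4 lies far above the upper dotted line at 126 and 619, and STAT2 lies furthest below the lower one among genes measured on both arrays.

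Time without TGF-beta3 was followed from day 3 to day 21 and from day 21 to day 42, and these comparisons share the day 21 array. From day 3 to day 21, 9 of 56 factors were at least 2-fold apart (16.1%, against 11.7% of all genes), 6 higher (7.03% of all genes) and 3 lower (4.72%), or 12 and 2 when scaled to the hybridisation controls, which moved the median of all genes from 0.03 to 0.52. Under that scaling all genes were 1441 higher and 126 lower. As deposited, KLF15 was 8.25-fold higher, STAT4 3.49-fold, NR1I3 3.12-fold and KLF13 2.23-fold. All 4 of these were lower with TGF-beta3 on day 21, a comparison that uses the same untreated array. KLF11 and TCF20 were 3.52-fold and 2.75-fold lower. Dimmer KLF11 probe sets were within 2-fold, at log2 -0.53 and -0.57. TCF20 was at 34.3 on the untreated day 21 array, against 94.3 on day 3 and 175 on day 42. That low reading also enters its TGF-beta3 difference on day 21. FOXP2, a forkhead factor of brain and muscle, was above the floor only on day 3, at 40.7. Over the same time the summed signal of the fat cell markers went from 5076 to 15593 and that of the blood cell markers from 317 to 523. Their part in the values of KLF15 and STAT4 was not tested.

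From day 21 to day 42 without TGF-beta3, 10 of 51 factors were at least 2-fold apart (19.6%, against 9.32% of all genes), 3 higher (3.83% of all genes) and 7 lower (5.49%). Median centring gave 4 and 4 and spike scaling 2 and 9, with the median of all genes at 0.06 as deposited, 0.41 and -0.11. All genes were 749 higher and 164 lower under median centring and 201 and 628 under spike scaling. TCF20 was 5.09-fold higher and ETS1 2.20-fold higher, and ERG, STAT6 and TCF4 were 2.65-fold, 2.57-fold and 2.13-fold lower. KLF15 and STAT4 stayed within 1.2-fold. With TGF-beta3, 28 of 67 factors were at least 2-fold apart between days 21 and 42 (41.8%, against 30.7% of all genes), 25 higher (19.7% of all genes) and 3 lower (11.1%). This split was 16 and 6 under median centring and turned to 6 and 20 when scaled to the hybridisation controls, which were higher by log2 1.19 on the day 42 array. The median of all genes was 0.18 as deposited, -0.11 and -0.97. All genes were 903 higher and 1279 lower under median centring and 220 and 3470 under the control scaling. ETS1 was 9.15-fold higher, HOXB4 5.63-fold, SOX10 5.30-fold, TEAD2 4.65-fold and FOXO4 3.87-fold. Another ETS1 probe set was almost level, at 119 and 128. Of these, ETS1, HOXB4, SOX10 and TEAD2 were still past 2-fold when scaled to the hybridisation controls, at log2 2.01, 1.31, 1.22 and 1.03, and FOXO4 was at 0.77. TCF7 was 2.26-fold lower among genes above the floor on both arrays, and NR1I3 was at least 2.30-fold and SOX4 at least 2.09-fold lower, both under the floor on day 42.

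**Figure D5:**
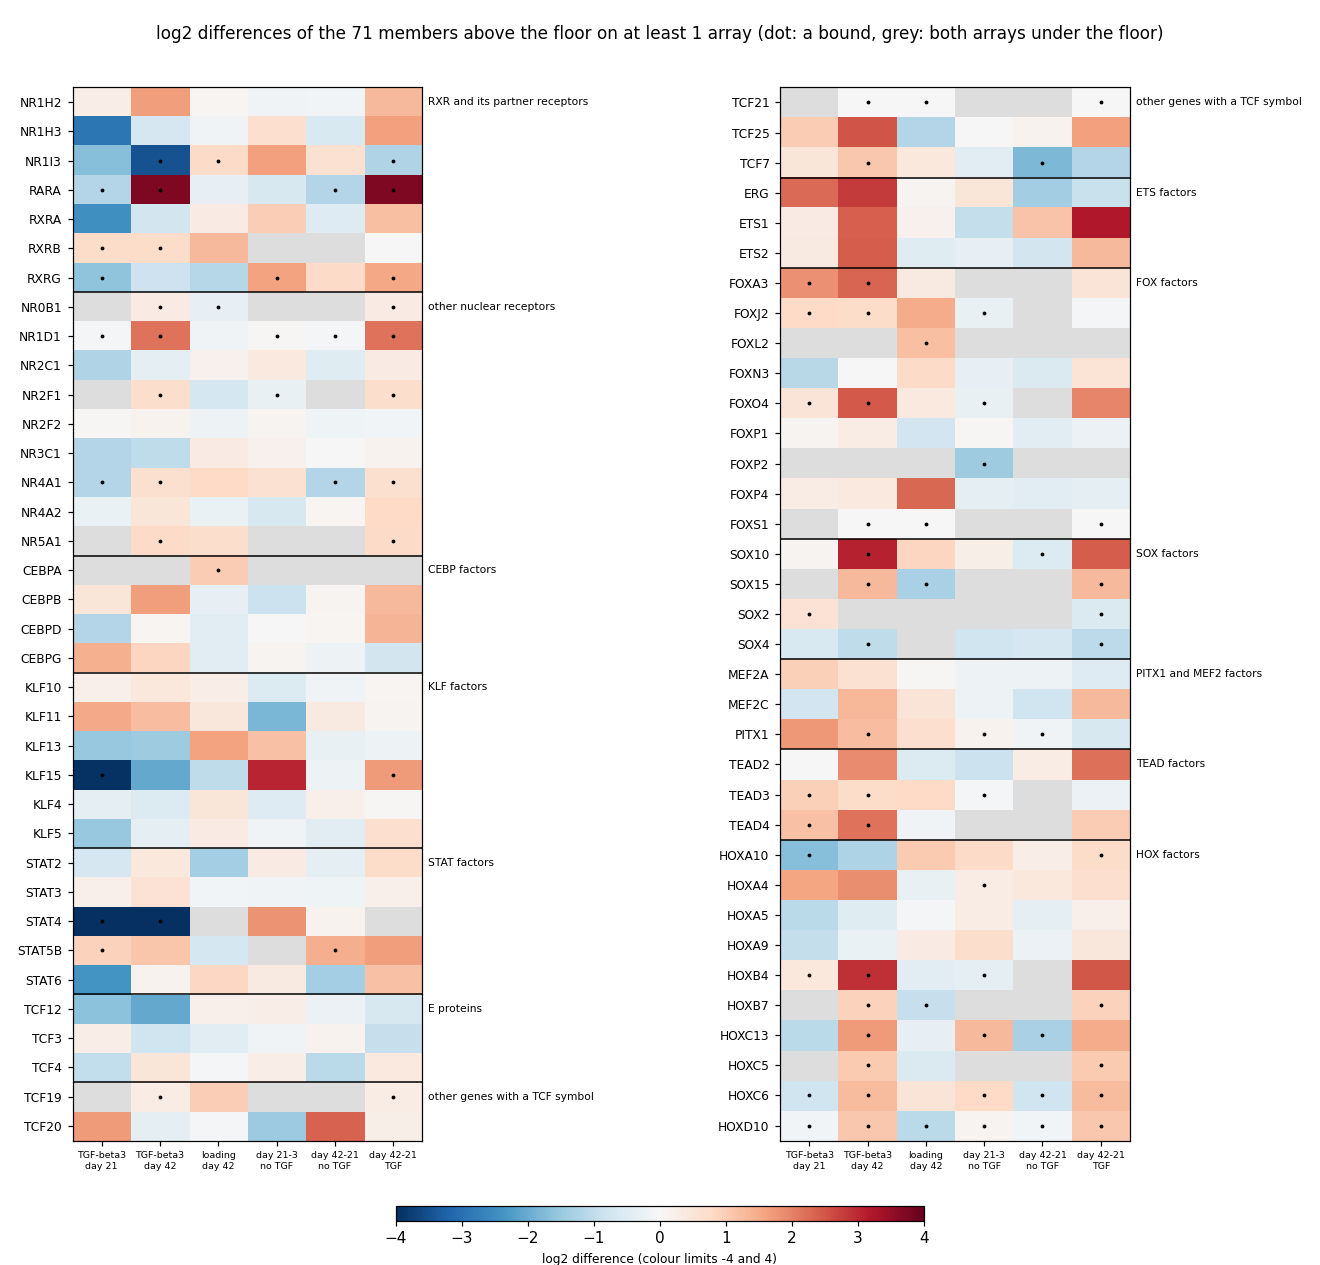
Log2 differences (colour, from -4 to 4) of the 71 factors above the floor on at least 1 array in the 6 comparisons (columns), grouped by family with the family named at its first row, where a dot marks a bound and grey marks factors under the floor on both arrays; each cell is 1 array against 1 array. The TGF-beta3 column of day 42 and the column of day 42 against day 21 with TGF-beta3, which share an array, hold 25 factors each at least 2-fold higher, and 11 and 6 when scaled to the hybridisation controls. Over all genes these counts were 1926 and 1472 as deposited, and 447 and 220 under that scaling.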

How the data were processed

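Total RNA of 6 conditions, 1 array each, was hybridised to bovine Affymetrix arrays. The deposited values are signal intensities per probe set on a linear scale, made by the authors with MAS5, per the submitters' processing notes (the sources used here give no version). Their trimmed mean was 150 on every array, so each array had been scaled globally. The deposited values hold no columns without a sample.

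From these intensities 112 control probe sets were left out, values under the floor (the 40th percentile, 15.1) were set to it, and log2 was taken. Probe sets were named where the annotation gave 1 gene symbol. All 80 Entrez identifiers of the factors were found in the RefSeq gene table under the same symbol. A difference with 1 side under the floor is a bound ("at least"), and with both under it none is given. TGF-beta3 was tested with limma 3.58.1 (R 4.3.3; trend on signal; Benjamini-Hochberg over the 14839 probe sets that exceeded the floor on 2 or more of 4 arrays) on days 21 and 42 without loading. That fit left 1 residual degree of freedom against 49.8 from the spread pooled over probe sets, so p-values rest mainly on the latter, and nothing says whether the cultures of both days were separate. Other comparisons set 1 array against 1 and were read by size at 2-fold. Tables and plots used Python 3.11.15, pandas 2.3.3 and matplotlib 3.10.9. On simulated data of 14839 probe sets for the TGF-beta3 comparison the limma step recovered 8% of the genes made to differ by log2 1, 65% of those by log2 2, and called 7 of 14639 unchanged probe sets. Only 100 probe sets were changed at each size, a smaller share than was called in the data. The noise was independent and normal with the spread of the fit. These rates need not hold for the real arrays.

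Genes named were those that passed limma, those 2-fold apart on both days (either the same way or opposite), the 5 highest and 5 lowest per size comparison, 46 chosen factors whatever their values, and up to 4 genes per list and direction. Others were chosen after their values were seen: RXRG, RXRB, NR1H2, NR1D1, CEBPG, FOXO4, FOXN3, FOXP1, FOXP2, STAT5B, TCF3, MEF2A, TEAD4, SOX2, SOX15, SOX18, FOXL2, HOXA9, HOXD10 and, among list genes, COL2A1, ACAN, PTPRC, CD3E, PECAM1, PLIN2, ANGPTL4, ISG15, MX1, ID1, ID2, CCN1, CCN2, IBSP, SPP1, MMP13, COL10A1, ALPL and MYLK. The factors and the 22 lists (15 of partners and targets, 7 of cell markers) were chosen with earlier results of these data known, so no list count is independent support. Alternatives were the scaling (quantile, median centring, hybridisation controls), the floor (25th or 60th percentile, a signal of 100, or the floor added to all values), the median over a gene's probe sets, the fold, the day term, the variance trend, genes only, the loaded array swapped in for the unloaded one, and leaving out each array.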

Additional observations from a re-analysis of the deposited data

Results flagged for a closer look

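HOXC13 and RARA were singled out because their log2 differences with against without TGF-beta3 passed 2-fold in opposite directions on days 21 and 42. HOXC13 had -1.09 on day 21 and 1.70 on day 42, the latter a bound. RARA had -1.16 on day 21 and 3.73 on day 42, both bounds, and its other probe set -0.35 and 2.28. With 1 array per condition and day, the difference between the days was not tested. The limma fit over both days gave adjusted p = 0.814 for HOXC13 and 0.288 for RARA.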

How the results depend on the processing

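The count of factors called by limma for TGF-beta3 (10) was 2 when the day term was dropped and 5 when the variance trend was. Leaving out single arrays moved it over 0 to 15: 1 and 0 without the untreated day 21 and day 42 array, 15 and 13 without the treated ones. The fits that left out an array had no day term and assumed a lone array to vary like the other arm. It was 7 to 15 under the other alternatives. Of 44 partner and target genes called, the number was 25 without the day term and 21 to 66 (22 and 21 without the untreated day 21 and day 42 array) with 1 array left out. For factors 2-fold apart, the floor at the 60th percentile and at a signal of 100 gave 16 and 13 (28 by the rule used) for TGF-beta3 on day 21, 15 and 10 (33) on day 42, 2 and 2 (13) for loading, 4 and 2 (9) for day 21 against 3, 3 and 2 (10) for day 42 against 21 without and 13 and 6 (28) with TGF-beta3. At 3-fold these were 13, 20, 2, 5, 2 and 11. At 1.5-fold loading gave 27 and the 2 comparisons over time without TGF-beta3 gave 21 and 17. The floor at the 25th percentile gave 20 for loading, spike scaling 14 for day 21 against 3, and adding the floor 6 for day 42 against 21 without TGF-beta3. Fewer factors are compared under a higher floor; the causes of the other shifts were not tested. Under spike scaling the TGF-beta3 differences on day 42 of KLF11 (-0.070), PITX1 (-0.024) and MEF2C (-0.0018), past 2-fold as deposited, changed sign. So did those of STAT6 (-0.025) and TEAD4 (-0.16), also past 2-fold, for day 42 against 21 with TGF-beta3. Further factors changed sign too. On day 42 the TGF-beta3 differences of CEBPD, NR2F2 and KLF10 went from 0.085, 0.13 and 0.42 to -1.23, -1.19 and -0.90. The single-gene values followed through every setting include the KLF11 and PITX1 values just given, but not those of MEF2C, STAT6 and TEAD4. Of those followed, 797 kept their call or lack of one, 122 lost their call, 11 gained one and 2 reversed. This counts calls and not signs. The limma mean log2 difference of KLF10, which never passed, ran from -0.49 to 0.54 over the settings.

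Among the calls, TCF12, ERG and KLF15 passed in 13 of 16 alternative fits, against 7 of 16 for TCF25 and 8 of 16 for RXRA. Adjusted p ran from 1.1e-07 to 0.144 for TCF12, 3.2e-05 to 0.282 for ERG and 0.00092 to 0.717 for RXRA by limma. Arrays could be paired by day only, because each condition had 1 array and the labels carry no replicate numbers. The day term sets treated against untreated arrays of the same day, and without it 2 factors were called. Signals near the floor limit the dim factors, 37 of the 80 being above it on only some arrays and 9 on none.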

Other observations

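Other cell types that marrow stromal cells can resemble were followed with marker lists. Of 5 smooth muscle and pericyte markers tested, TAGLN, CNN1, ACTA2 and DES rose with TGF-beta3 over days 21 and 42 and MYLK fell (limma mean log2 3.03, 2.87, 2.48, 2.11 and -1.91, the highest adjusted p being 0.0222). Under spike scaling 2 rose and 1 fell, and without the day term none passed. Of 7 markers 4 were above the floor on an untreated array of day 21 or 42, so not all 5 tested were. ACTA2 and TAGLN are contractile genes of smooth muscle and of activated stromal cells. ACTA2 was at 438, 627 and 140.0 on days 3, 21 and 42 without TGF-beta3 and at 3368, 812 and, loaded, 1196 with it. MYH11, a gene of mature smooth muscle, and RGS5, a pericyte gene, were under the floor on every array.

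Of 9 mesenchymal stem cell markers tested, NT5E rose and CXCL12, VCAM1 and CD44 fell (limma mean log2 1.41, -4.23, -2.51 and -1.51). The NT5E rise was lost under median centring, under spike scaling, without the variance trend and without the day term, and 1 marker fell without the day term. CXCL12, the chemokine that holds blood stem cells in marrow, was at 591, 317 and 255 without TGF-beta3, under the floor on days 21 and 42 with it, and at 104 on the loaded array. CXCL12 thus entered the limma fit only through the untreated arrays, where it is high. Neither of the 2 bone cell markers tested, IBSP and SPP1, passed. ALPL, the alkaline phosphatase of mineralising cells, was above the floor on the loaded array and, barely, on the unloaded day 42 array with TGF-beta3 (51.3 and 15.4). COL10A1, the collagen of hypertrophic cartilage, was at 15.99 on day 42 without TGF-beta3, 107 with it and 748 when loaded, each a single array.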
